A study of Mus musculus with 9 samples.

Results

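Transcripts of 8 genes that write, maintain or remove DNA methylation were measured in MYCN-driven T cell lymphoma of the mouse and in control CD4 T cells. The genes are the maintenance pair Dnmt1 and Uhrf1, the de novo methyltransferases Dnmt3a and Dnmt3b, the TET dioxygenases Tet1, Tet2 and Tet3, and the DNA glycosylase Tdg. They were picked by symbol for their known function, but with earlier results of these data known. They make up 8 of the 46078 genes of the deposited count table. All 8 had enough reads to be among the 15401 genes tested.

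The lymphoma group holds 6 libraries, numbered 34, 53, 56, 70, 72 and 86 in the labels, of lymphoma cells that MYCN induced and that were taken from the thymus. The CD4 group holds 3 libraries, numbered 1, 2 and 3, of CD4+ T cells from the spleen of mice not labelled as carrying a tumour. Both groups are of the C57BL/6J strain, and the sequencing read the 3′ ends of transcripts. The labels used here name neither the promoter that drives MYCN, nor the age of the animals, nor whether each library is from a separate animal, so p-values measure only the spread between these libraries.

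Methyl groups on the cytosine of CpG sites are copied to the new DNA strand after replication by DNMT1, which UHRF1 guides to hemimethylated sites. DNMT3A and DNMT3B place methyl groups at sites that lacked them. TET enzymes oxidise the methyl group, and TDG cuts out the oxidised bases so that base excision repair can put back plain cytosine. In T cells these enzymes are known for shaping lineage genes, and loss-of-function mutations of TET2 and DNMT3A are known from human T cell lymphoma.

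A library holds 11170704 to 15769679 gene counts in lymphoma and 8099960 to 10808828 in CD4. Levels are given in CPM, the counts of a gene scaled to 1000000 counts of its library. The summed level of 11 T cell markers was 1675 to 2716 CPM in lymphoma and 2815 to 2950 CPM in CD4. Of these markers Cd2 and Cd4 fell by edgeR and 9 did not pass, where 21.9% of all tested genes fell. Cd3d stood at 386 to 512 CPM in lymphoma and 421 to 454 CPM in CD4, and Cd4 at 6.04 to 71.9 CPM and 199 to 263 CPM. Cd8a had 29.4 CPM in lymphoma 53, at most 1.53 CPM in the other lymphomas and 25.6 to 31.8 CPM in CD4. The summed level of 10 B cell markers was 6.85 to 13.4 CPM in lymphoma and 1254 to 1514 CPM in CD4, so the control libraries hold B cell RNA. The summed level of 10 myeloid markers was 69.1 to 2172 CPM and 796 to 1015 CPM, of 10 stromal markers 97.5 to 181 CPM and 214 to 240 CPM, and of 8 erythroid markers 20.7 to 771 CPM and 90.1 to 297 CPM, in lymphoma and CD4 respectively. Of 7 tested stromal markers 2 rose and 2 fell, beside 24.7% and 21.9% of all tested genes. Dcn, which rose, was at 0 in every CD4 library and at 1.71 to 7.36 CPM in lymphoma. Pecam1, which fell, had 59.3 to 81.3 CPM in lymphoma and 186 to 199 CPM in CD4. Epcam, the other marker that rose, had 7.003 to 50.65 CPM in lymphoma and 1.05 to 1.927 CPM in CD4. Kdr, the other that fell, had at most 0.4365 CPM in lymphoma and 1.468 to 5.4 CPM in CD4. The median log2 fold change of the 7 tested stromal markers was 0.98, although their list had the lower summed level in lymphoma. Krt5 and Krt8, at 0 in CD4 like Dcn, had at most 10 counts in a lymphoma. Tissue of origin and sex coincide with the groups (Xist 4.66 to 11.3 CPM in lymphoma and 493 to 582 CPM in CD4), so neither can be told apart from the lymphoma itself. Mouse Mycn had at most 3 counts in a lymphoma and at most 6 in a CD4 library, so the labels could not be checked by the driver. Among the members, lymphoma 53 stood apart from the other lymphomas in Tet1, which is given with and without it. The most used T cell receptor beta segment was Trbv12-1 in lymphomas 34, 70 and 72 (78.6%, 61.6% and 54.0% of 84, 73 and 87 Trbv counts), so these 3 may not be independent. Lymphoma 53 had 9 Trbv counts, 7 of them of Trbv26, and lymphomas 56 and 86 had 0. The segments thus give no check on lymphomas 56 and 86 and little on lymphoma 53. With lymphomas 34, 70 and 72 averaged into 1 library, the same 7 members passed the test described next.

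Promoter windows of all 8 members were found in the RefSeq promoter table (GRCm38.p6), 13 windows in all, each reaching from 250 bases before to 50 bases after a start of transcription. They were searched on both strands for the E2F words TTTCCCGC, TTTCGCGC, TTTGCCGC and TTTGGCGC, since E2F factors serve S-phase genes, and for the E-box CACGTG that MYC-family factors bind. Of all 32851 windows in the table, 2.26% hold an E2F word and 7.15% the E-box. By gene, 2.6% of 27025 have a window with an E2F word and 8.09% a window with the E-box. Among the members, Dnmt1 and Uhrf1 each have a window with an E2F word, and Dnmt3a and Tdg each have a window with the E-box. These windows are shown with the matching words in capitals, together with that of Tet2, which has no match and, with 57 CpG sites, holds more CpG sites than the other 12 member windows.
Dnmt1, chr9:20952574-20952873, minus strand: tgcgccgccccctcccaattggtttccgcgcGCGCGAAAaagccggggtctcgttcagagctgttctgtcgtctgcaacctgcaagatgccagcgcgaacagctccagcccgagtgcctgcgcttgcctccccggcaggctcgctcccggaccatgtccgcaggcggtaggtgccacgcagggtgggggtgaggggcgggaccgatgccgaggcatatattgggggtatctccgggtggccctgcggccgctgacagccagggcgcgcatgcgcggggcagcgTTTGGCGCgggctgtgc
Uhrf1, chr17:56304063-56304362, plus strand: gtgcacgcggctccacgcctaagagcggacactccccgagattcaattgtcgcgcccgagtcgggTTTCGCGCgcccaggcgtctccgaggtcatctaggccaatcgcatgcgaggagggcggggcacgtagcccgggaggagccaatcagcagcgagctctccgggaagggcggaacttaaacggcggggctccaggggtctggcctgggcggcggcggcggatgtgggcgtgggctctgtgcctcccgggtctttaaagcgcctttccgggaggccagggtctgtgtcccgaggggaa
Dnmt3a, chr12:3891494-3891793, plus strand: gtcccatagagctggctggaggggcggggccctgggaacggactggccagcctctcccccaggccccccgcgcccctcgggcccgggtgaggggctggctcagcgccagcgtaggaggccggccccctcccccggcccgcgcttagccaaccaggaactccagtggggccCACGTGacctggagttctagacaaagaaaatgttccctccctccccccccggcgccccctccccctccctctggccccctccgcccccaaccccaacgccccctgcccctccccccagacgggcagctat
Tdg, chr10:82629588-82629887, plus strand: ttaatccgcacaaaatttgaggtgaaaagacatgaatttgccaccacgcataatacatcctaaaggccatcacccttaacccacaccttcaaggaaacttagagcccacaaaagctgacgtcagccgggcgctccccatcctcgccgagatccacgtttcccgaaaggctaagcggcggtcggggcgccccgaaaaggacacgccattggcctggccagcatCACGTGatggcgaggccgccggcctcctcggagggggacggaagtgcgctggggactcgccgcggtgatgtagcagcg
Tet2, chr3:133544341-133544640, minus strand: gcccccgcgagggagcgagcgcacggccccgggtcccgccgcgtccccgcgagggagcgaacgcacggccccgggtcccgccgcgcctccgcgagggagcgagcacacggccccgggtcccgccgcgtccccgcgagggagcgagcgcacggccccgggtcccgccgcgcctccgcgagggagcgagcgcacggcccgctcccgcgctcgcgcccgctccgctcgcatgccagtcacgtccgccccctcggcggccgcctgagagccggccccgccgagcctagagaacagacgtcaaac
The Dnmt1 window has 2 E2F words, TTTCGCGC on the reverse strand and TTTGGCGC on the forward strand, and the Uhrf1 window has TTTCGCGC on the forward strand. Dnmt1 has 2 other windows and Uhrf1 has 1 other window, and these hold neither word set. The other Dnmt3a windows, which start at 3806730 and 3806910 near the start of the gene, also hold neither. A match describes letters in a window and is no measure of binding.

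Writers of DNA methylation were higher in lymphoma and 2 of the 3 TET genes were lower. In the quasi-likelihood test of edgeR, with p-values adjusted after Benjamini and Hochberg, 7 of 8 members differed between the groups, beside 46.6% of all tested genes. Dnmt1, Uhrf1, Dnmt3a, Dnmt3b and Tdg rose (24.7% of tested genes did), Tet2 and Tet3 fell (21.9% did), and Tet1 did not pass the threshold of 0.05. The median log2 fold change was 1.34 over the members and 0.04 over all tested genes. In the 7 members that differed, the libraries of the groups did not overlap in CPM, as in 44.9% of tested genes (22.6% higher and 22.3% lower in lymphoma). In RNA from bulk samples, fewer cells that express a gene and less of its RNA per cell cannot be told apart.

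**Figure D1:**
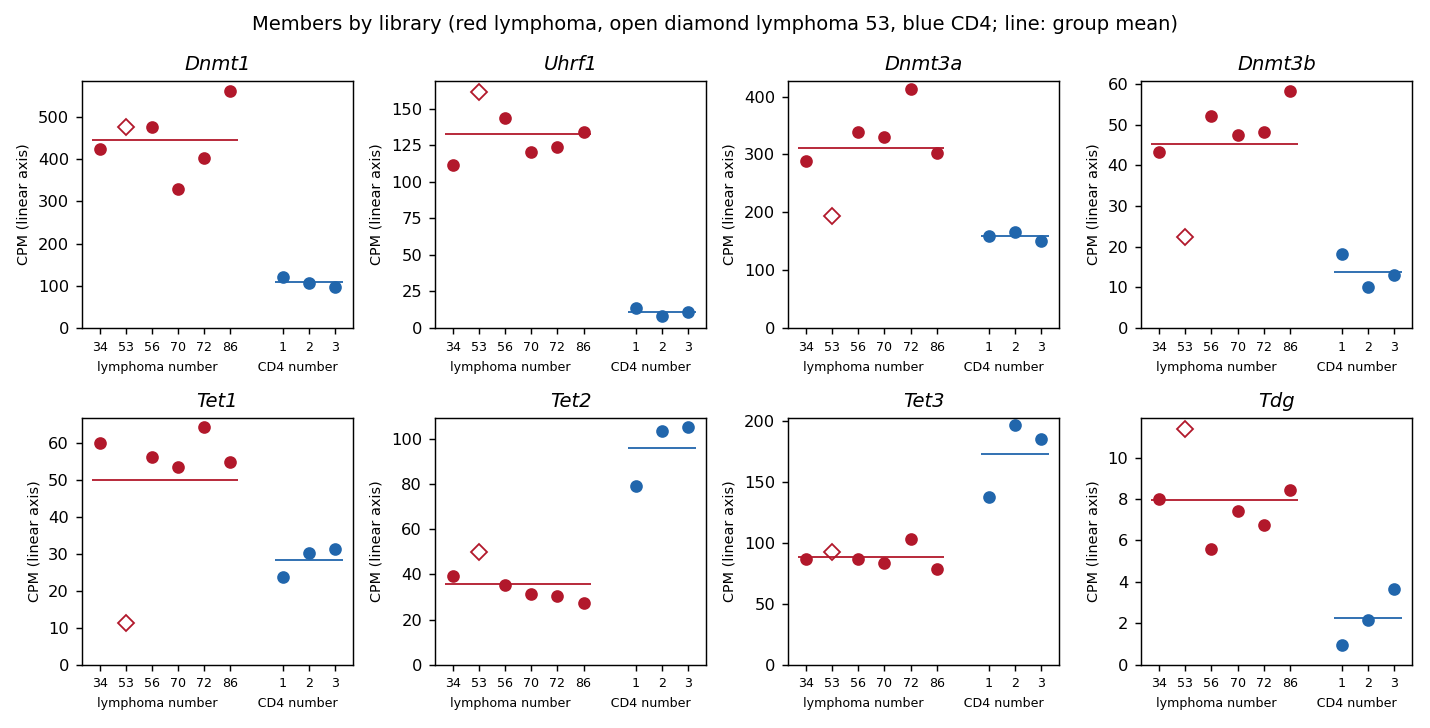
Level of each member in every library, in CPM on a linear axis, with lymphomas in red (lymphoma 53 as an open diamond), CD4 libraries in blue and a line at each group's mean. Dnmt1, Uhrf1, Dnmt3a, Dnmt3b and Tdg are higher in all 6 lymphomas than in all 3 CD4 libraries, Tet2 and Tet3 are lower in all 6, and the Tet1 value of lymphoma 53 lies under all CD4 values.

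Uhrf1 had the largest change of the members. UHRF1 reads hemimethylated CpG sites and histone tails and recruits DNMT1. Uhrf1 (ENSMUSG00000001228, chr17:56303321-56323486, plus strand, GRCm38) had a lowest level of 112, a median of 129 and a highest level of 161.5 CPM in lymphoma, and 13.7, 8.40 and 10.7 CPM in CD4 1, 2 and 3. Every lymphoma was far above every CD4 library, and lymphoma 53 had the highest value. Uhrf1 rose by 3.59 log2 units (SE 0.225, 95% interval 3.10 to 4.08, edgeR adjusted p 4.09e-07), which is a 12.1-fold rise. The groups had means of 133 ± 17.9 CPM (SD, n = 6) and 10.96 ± 2.68 CPM (SD, n = 3). A processed pseudogene with 98.3% identity over 1590 bases, Gm5648, had 0 counts in every library, but reads that align equally well to both places are in neither count.

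Dnmt1, the maintenance methyltransferase, rose less steeply from a higher CPM level. Dnmt1 (ENSMUSG00000004099, chr9:20907209-20959888, minus strand) ranged from 330 to 562 CPM with a median of 450.1 CPM in lymphoma, and stood at 121, 107 and 96.6 CPM in CD4 1, 2 and 3. The lowest lymphoma was number 70 and the highest number 86, and the lowest was still well above the highest CD4 library. Dnmt1 rose by 2.04 log2 units (SE 0.193, 95% interval 1.62 to 2.46, edgeR adjusted p 8.09e-06), a 4.11-fold rise. Within a library, the log2 ratio of Uhrf1 to Dnmt1 counts was -1.74 ± 0.23 (SD, n = 6) in lymphoma and -3.32 ± 0.30 (SD, n = 3) in CD4, so that Uhrf1 gained 1.59 log2 units on Dnmt1. The ratio did not overlap between the groups, with a lowest lymphoma value of -2.06 and a highest CD4 value of -3.14.

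Proliferation genes moved beside the maintenance pair. All 20 listed proliferation genes rose by edgeR, with log2 fold changes from 1.99 to 4.54 and a median of 3.39, and their summed level was 4135 to 5760 CPM in lymphoma and 484 to 633 CPM in CD4. The largest rises were those of Cdc6, a replication licensing factor (4.54, SE 0.329), and Ccnb1, a mitotic cyclin (4.32, SE 0.423). Of the 20 genes, 7 had a larger log2 fold change than Uhrf1 and 19 a larger one than Dnmt1. Of the 16 proliferation genes with a promoter window, 7 hold an E2F word, beside 2.6% of all genes with a window. Of 38 genes with a window in the pathway list described below, 3 hold one. The part of proliferation in the changes of Uhrf1 and Dnmt1 was not tested.

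The de novo methyltransferases rose by smaller amounts, and lymphoma 53 was the lowest lymphoma in both. Dnmt3a (ENSMUSG00000020661, chr12:3806007-3914443, plus strand) had 194, 316 and 414 CPM as lowest, median and highest lymphoma values, and 159.5, 165 and 150.5 CPM in CD4 1, 2 and 3. The lowest value, in lymphoma 53, was close to the CD4 libraries, and the other 5 lymphomas were at 289 CPM or more. Its rise was 0.97 log2 units (SE 0.212, 95% interval 0.51 to 1.44, edgeR adjusted p 0.00265) and 1.07 without lymphoma 53. The antisense gene Dnmt3aos overlaps an exon of Dnmt3a, and it had at most 3 counts in a lymphoma and at most 13 in a CD4 library. With no strand setting given, reads of an overlapping antisense gene cannot be told apart from those of the member.

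Dnmt3b encodes the second de novo enzyme, which in development acts mainly in the early embryo. Dnmt3b (ENSMUSG00000027478, chr2:153649450-153687730, plus strand) had 22.4, 47.9 and 58.3 CPM as lowest, median and highest lymphoma values, and 18.1, 10.1 and 13.1 CPM in CD4 1, 2 and 3. Lymphoma 53 was again the lowest, only a little above CD4 1, while the other 5 lymphomas lay between 43.4 and 58.3 CPM. The rise of Dnmt3b was 1.72 log2 units (SE 0.307, 95% interval 1.05 to 2.39, edgeR adjusted p 0.000752), and 1.85 without lymphoma 53. The log2 ratio of Dnmt3b to Dnmt3a within a library was -2.80 ± 0.28 (SD, n = 6) in lymphoma and -3.56 ± 0.45 (SD, n = 3) in CD4. These ratios lay next to each other, with -3.11 in lymphoma 53 and -3.13 in CD4 1.

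The TET genes did not move together. Tet2, the member most often mutated in human T cell lymphoma, fell in all lymphomas. Tet2 (ENSMUSG00000040943, chr3:133463679-133545139, minus strand) had 27.2, 33.4 and 49.9 CPM as lowest, median and highest lymphoma values, and 79.2, 104 and 106 CPM in CD4 1, 2 and 3. The highest lymphoma, number 53, was below the lowest CD4 library. Its log2 fold change was -1.43 (SE 0.200, 95% interval -1.87 to -1.0, edgeR adjusted p 0.000129), which is 2.70-fold lower, and -1.56 without lymphoma 53. An antisense gene, Gm42567, overlaps an exon of Tet2, and no counts were found under its symbol. With no strand setting given, any reads of Gm42567 there cannot be told apart from those of Tet2.

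Tet3 (ENSMUSG00000034832, chr6:83362373-83459084, minus strand), known for its role in the zygote and in lymphocytes alongside Tet2, had 78.3, 86.8 and 103 CPM as lowest, median and highest lymphoma values. CD4 1, 2 and 3 had 137.5, 197 and 185 CPM, all above every lymphoma. The log2 fold change was -0.97 (SE 0.157, 95% interval -1.31 to -0.63, edgeR adjusted p 0.000389), or 1.96-fold lower. Tet3 varied little among lymphomas, with a coefficient of variation of 9.78%, and lymphoma 53 was in their range at 92.4 CPM. B cell markers moved with the falls of Tet2 and Tet3, all 10 of them being lower in lymphoma with a median log2 fold change of -7.40, and their part in the falls was not tested.

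Tet1 differed between lymphomas more than any other member. Tet1 (ENSMUSG00000047146, chr10:62804570-62908996, minus strand) had 60.0, 11.4, 56.3, 53.7, 64.3 and 54.9 CPM in lymphomas 34, 53, 56, 70, 72 and 86, and 23.7, 30.2 and 31.4 CPM in CD4 1, 2 and 3. Of the lymphomas, 5 were above all CD4 libraries and lymphoma 53 was below all of them. Over all 9 libraries the log2 fold change was 0.82 (SE 0.418, 95% interval -0.10 to 1.74) and did not pass (edgeR adjusted p 0.132). Without lymphoma 53 it was 1.02 (edgeR adjusted p 0.000154), while the coefficient of variation among lymphomas went from 38.6% to 7.49%. Leaving out any of the other 8 libraries in turn did not bring Tet1 past the threshold.

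**Figure D2:**
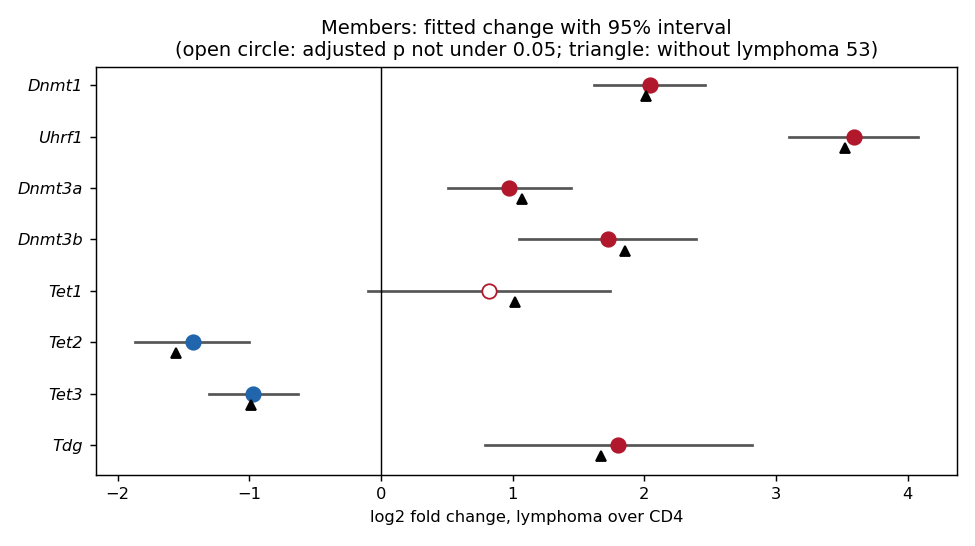
Fitted log2 fold change of each member, lymphoma over CD4, with its 95% interval over all 9 libraries (circles) and its value without lymphoma 53 (triangles). Uhrf1 lies farthest to the right at 3.59, Tet2 farthest to the left at -1.43, and the interval of Tet1 is the only one of the 8 that spans 0.

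Within libraries the balance of the TET genes shifted towards Tet1 in 5 lymphomas. The log2 ratio of Tet1 to Tet2 was 0.61, -2.12, 0.67, 0.78, 1.08 and 1.01 in lymphomas 34, 53, 56, 70, 72 and 86, whereas CD4 1, 2 and 3 had ratios of -1.74, -1.77 and -1.75. Tet1 counts exceeded Tet2 counts in these 5 lymphomas and were below them in lymphoma 53 and in the CD4 libraries. The ratio of Tet1 to Tet3 was -3.01 in lymphoma 53, -0.68 to -0.51 in the other lymphomas and -2.70 to -2.54 in CD4. The ratio of Tet2 to Tet3 had means of -1.34 ± 0.30 (SD, n = 6) and -0.84 ± 0.07 (SD, n = 3), and the groups overlapped through lymphoma 53 at -0.89. Such ratios compare libraries and do not rank the genes by transcript number.

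**Figure D3:**
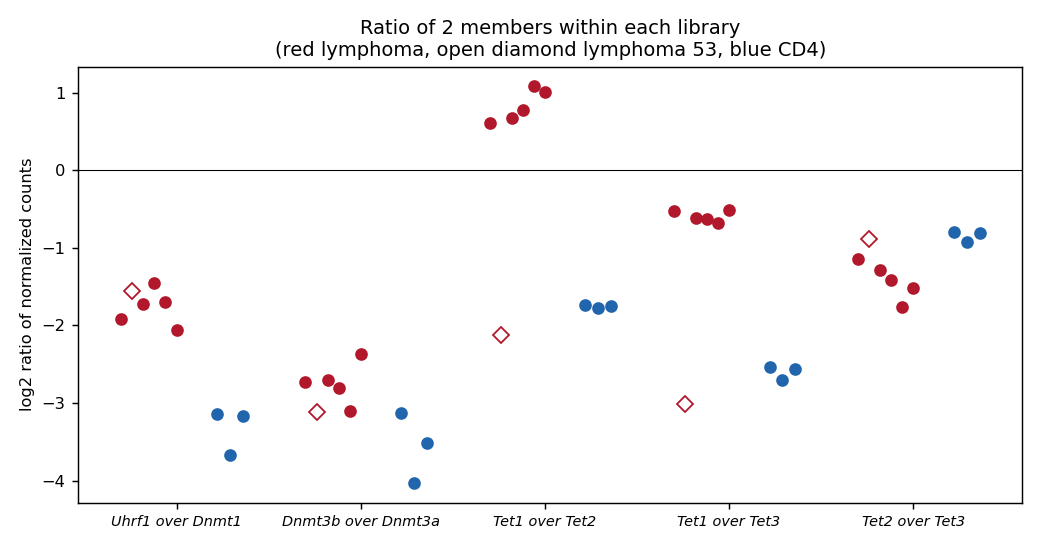
Log2 ratio of normalized counts (0.5 added) of 2 members within each library, for 5 pairs, with lymphomas in red (lymphoma 53 as an open diamond) and CD4 libraries in blue. For Tet1 over Tet2 the 5 other lymphomas lie between 0.61 and 1.08, while lymphoma 53 at -2.12 lies below the CD4 libraries.

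Tdg, the glycosylase that removes oxidised methylcytosine, rose from few counts. Tdg (ENSMUSG00000034674, chr10:82629828-82650799, plus strand) had between 77 and 125 counts in the lymphomas against 10, 18 and 40 counts in CD4 1, 2 and 3, or 5.602 to 11.4 CPM and 0.954, 2.16 and 3.67 CPM. All lymphomas were above all CD4 libraries, and the highest was number 53. The log2 fold change was 1.80 (SE 0.466, 95% interval 0.79 to 2.82, edgeR adjusted p 0.00759). The value is uncertain because of near-identical copies: the pseudogene Tdg-ps matches a Tdg transcript at 98.7% over 2968 bases, and Gm9855 and Gm5597 match it at 99.2% and 99.3% over 1194 and 1193 bases. Reads that align to several places were in no gene's count, and their share of all reads was 16.1 to 18.6% in lymphoma and 11.6 to 14.0% in CD4. Tdg also shares exon sequence with Glt8d2 on the opposite strand, which had 1 to 20 counts in lymphomas and 0 in CD4.

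For each member, the tested genes with the most similar profile were sought among 9423 genes with an average log2 CPM of at least 3, by the root mean square difference of centred log2 CPM over the 9 libraries. Uhrf1 was nearest to Aurka (0.15) and Rad51ap1 (0.18), a mitotic kinase and a recombination factor. Dnmt1 was nearest to Set (0.13) and Cct7 (0.14), Dnmt3a to Tomm7 (0.12) and Nelfa (0.13), and Dnmt3b to E2f6 (0.14) and Mta1 (0.15). Tet1 was nearest to Fam73a (0.17) and Cep83 (0.18), Tet2 to Tmem55b (0.09) and Phf20l1 (0.12), and Tet3 to Inpp5k (0.09) and Tnrc18 (0.10). The neighbours of Tdg, which had 10, 18 and 40 counts in CD4 1, 2 and 3, were farther off, with Dpagt1 at 0.27 and Pcna at 0.29. The distance takes in the change between the groups, so it is no measure of shared regulation. For Aurka and Rad51ap1 the log2 fold changes were 3.45 and 3.59, beside 3.59 for Uhrf1.

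Other genes of the DNA methylation pathway were taken from a list of 49, of which 46 were tested. By edgeR 22 rose, 8 fell and 16 did not pass, where 24.7% of all tested genes rose and 21.9% fell. The median log2 fold change was 0.54, against 0.04 over all tested genes. With upper quartile scaling 19 rose and 11 fell. Of 7 partners of maintenance methylation, 4 rose and 3 did not pass. The largest rises were in the chromatin remodelling pair that opens DNA for the maintenance machinery, Cdca7 and Hells. Cdca7 rose by 4.02 log2 units (SE 0.346), with 182 ± 63.1 CPM (SD, n = 6) in lymphoma against 11.2 ± 2.67 CPM (SD, n = 3) in CD4. Hells rose by 3.27 log2 units (SE 0.246), with 294 ± 51.5 CPM (SD, n = 6) against 30.5 ± 8.55 CPM (SD, n = 3). The replication clamp Pcna and Cdca7l, a relative of Cdca7, also rose. The UHRF1 paralogue Uhrf2 had a log2 fold change of -0.09 (95% interval -0.56 to 0.38, edgeR adjusted p 0.763), and Usp7, a deubiquitinase that binds DNMT1, one of 0.01 (-0.33 to 0.35, edgeR adjusted p 0.966).

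Of 3 listed partners of de novo methylation, 2 were tested and 1 fell, beside 21.9% of all tested genes. Nsd1, a histone methyltransferase whose mark recruits DNMT3A, fell by 0.74 log2 units (SE 0.170, edgeR adjusted p 0.00380). Setd2, which writes the mark read by DNMT3B, had a log2 fold change of -0.50 (edgeR adjusted p 0.0559), with all lymphomas below all CD4 libraries. Dnmt3l, the germline cofactor, did not pass the filter on low counts.

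Of 8 readers of methylated CpG sites, 3 rose and 2 fell, beside 24.7% and 21.9% of all tested genes. Zbtb4 fell by 3.17 log2 units (SE 0.172, edgeR adjusted p 2.05e-07), with 11.3 to 18.1 CPM in lymphomas against 157, 140 and 125.5 CPM in CD4 1, 2 and 3. Zbtb38, a zinc finger protein of the same kind as Zbtb4, rose by 1.66 log2 units (SE 0.200), and Mbd3, a subunit of the NuRD repressor complex, by 1.25 log2 units (SE 0.252). Zbtb4 was at a low level in every lymphoma, 53 included, at 15.3 CPM there.

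Of 15 excision and repair genes, 6 rose and 3 fell, beside 24.7% and 21.9% of all tested genes. The uracil glycosylase Ung rose by 3.33 log2 units (SE 0.302) and the glycosylase Neil3 by 3.28 log2 units (SE 0.274). Gadd45b, a stress gene linked to demethylation, fell by 2.55 log2 units (SE 0.659, edgeR adjusted p 0.00752), and its log2 fold change was -3.17 without lymphoma 53.

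Of 6 tested cofactors or partners of TET enzymes, 3 rose, 1 fell and 2 did not pass. Over all tested genes, 24.7% rose and 21.9% fell. Idh2, which makes 2-oxoglutarate, the cosubstrate of TET enzymes, rose by 1.90 log2 units (SE 0.387). Ogt, a partner of TET proteins, fell by 0.72 log2 units (SE 0.170). Of 8 tested genes of methyl donor supply, 6 rose, 1 fell and 1 did not pass. Ahcy, which removes the product inhibitor of methyltransferases, rose by 2.80 log2 units (SE 0.398), and Mtr, methionine synthase, by 1.14 log2 units (SE 0.223). Mat2b, the regulatory subunit of the enzyme that makes S-adenosylmethionine, fell by 0.65 log2 units (SE 0.207, edgeR adjusted p 0.0227), a call that was lost without CD4 2 (adjusted p 0.0623) and without CD4 3 (adjusted p 0.138). Mat2a, the catalytic subunit of the same enzyme, rose by 0.78 log2 units (SE 0.149, edgeR adjusted p 0.00117).

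**Figure D4:**
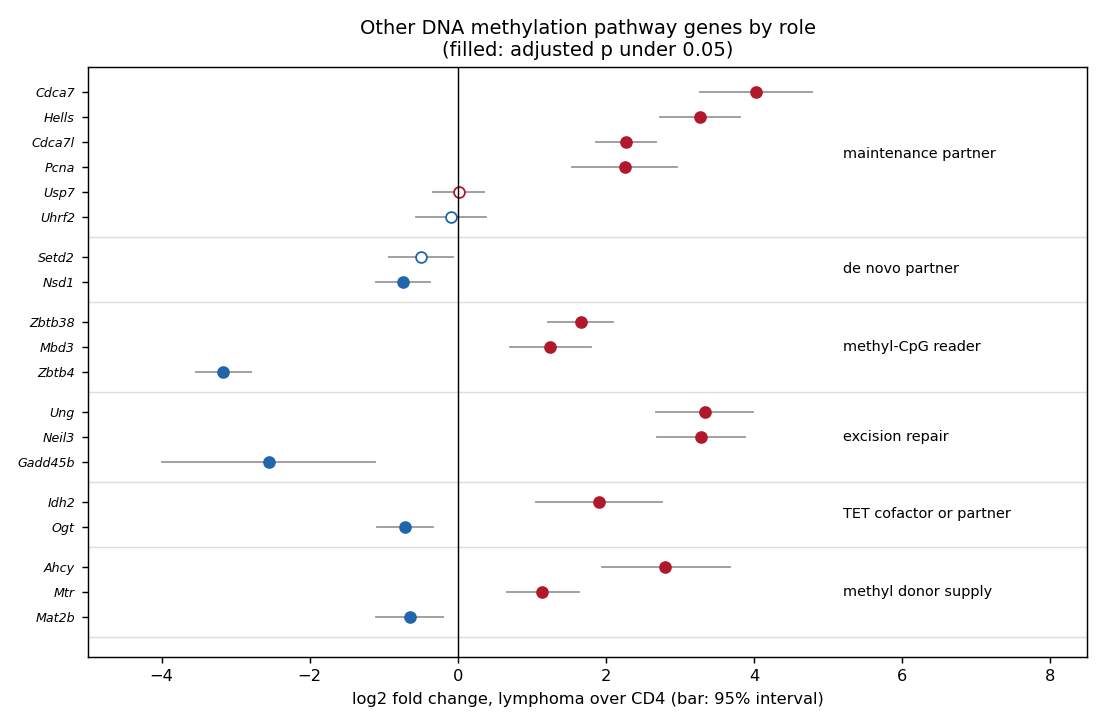
Log2 fold change, lymphoma over CD4, with 95% intervals for 19 pathway genes described in the text, grouped by role (filled circles have an edgeR adjusted p under 0.05). Maintenance partners reach 4.02 for Cdca7, and readers run from -3.17 for Zbtb4 to 1.66 for Zbtb38.

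Genes that promoter methylation silences outside the germline stayed near the limit of detection in both groups. Of 22 such germline genes, 1 passed the filter on low counts, Piwil2, with a log2 fold change of -0.18 (95% interval -2.53 to 2.17, edgeR adjusted p 0.907), and 9 had no more than 3 counts in any library. Sycp2 had 0 counts in all lymphomas and 3, 12 and 32 counts in CD4 1, 2 and 3. At these depths a count of 0 in a lymphoma allowed a level of up to 0.274 CPM (3 counts), which covers counting error only.

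Imprinted genes, whose expression from 1 parental allele rests on inherited DNA methylation, were taken from a list of 29, of which 15 were tested. Of these 5 rose and 3 fell, shares near the 24.7% and 21.9% of all tested genes, and the median log2 fold change was 0.68. Dlk1, a membrane ligand from an imprinted domain, had 307, 1.10, 207, 284, 382 and 165 CPM in lymphomas 34, 53, 56, 70, 72 and 86, and 0.477, 1.08 and 0.459 CPM in CD4 1, 2 and 3. It was high in 5 lymphomas and at the CD4 level in lymphoma 53, and its fitted change was 8.41 log2 units (SE 1.72, edgeR adjusted p 0.00389). The call was lost with limma voom (adjusted p 0.372), and without lymphoma 53 the change was 8.68.

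The noncoding RNAs of the Dlk1 domain were low. Mirg had 1 count in lymphoma 53, 9 to 45 counts in the other lymphomas and at most 1 count in CD4, and its call (edgeR adjusted p 0.0149) did not hold in limma voom (adjusted p 0.0578) or when either CD4 1 (0.0530) or CD4 2 (0.0550) was left out. Nor did the call hold at a threshold of 0.01, and Mirg was tested in only 13 of the 18 alternatives described below. Meg3 and Rian did not pass (edgeR adjusted p 0.160 and 0.194). Nap1l5 had 0 counts in 4 lymphomas, 1 count in lymphoma 70 and 5 counts in lymphoma 56, against 32, 18 and 82 counts in CD4 1, 2 and 3. It fell by 5.73 log2 units (SE 1.10), and its log2 fold change was -7.48 without lymphoma 56, so the size of the fall rests on few counts. No lymphoma had more than 2 counts of Nnat, which makes it at least 8.38-fold lower against a floor of 3 counts per library.

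**Figure D5:**
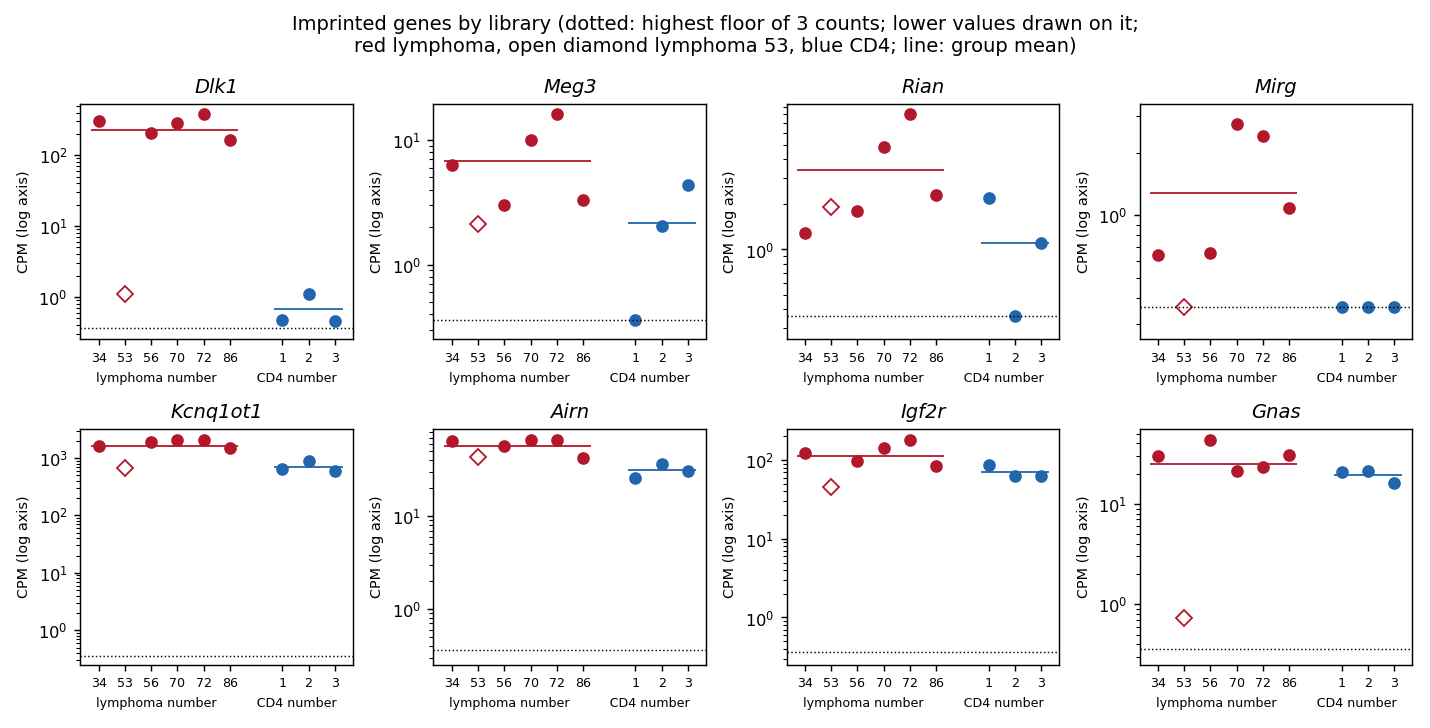
Level of 8 imprinted genes in every library, in CPM on a log axis, with lymphomas in red (lymphoma 53 as an open diamond), CD4 libraries in blue, group means as lines and a dotted line at the highest floor of 3 counts, on which lower values are drawn. Lymphoma 53 lies with the CD4 libraries for Dlk1 and Kcnq1ot1 and under them for Igf2r and Gnas.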

How the data were processed

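The members, gene lists and tests were chosen with earlier results of these data known. The authors deposited raw read counts per Ensembl gene for 9 libraries, with 46078 genes and 5 summary rows of reads in no gene, which were left out. FastQC, HISAT2, SAMtools and HTSeq and the builds mm10 and GRCm38 are named in the submitters' processing notes; versions, annotation and strand setting are not given in the sources used here. Reads in genes made up 38.7 to 49.1% of all reads in lymphoma and 27.8 to 35.0% in CD4.

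Genes were kept by filterByExpr (minimum count 10), scaled with TMM and tested with glmQLFit (robust) and glmQLFTest in edgeR 4.0.16 (R 4.3.3), lymphoma against CD4, with no covariate. P-values were adjusted over 15401 genes (threshold 0.05). Each SE was derived from the F statistic of its gene. CPM are relative to library sizes after TMM scaling (prior count 2 for log2 CPM). Alternatives used DESeq2 1.42.0 and limma 3.58.1. The tests were tried on simulated data. The most used Trbv segment of each library was counted. Symbols shared by several IDs were taken at the ID with most counts. Named are all members, for each role or list the 2 largest rises and 2 largest falls past the threshold, and 2 nearest profiles per member; other genes named were chosen after their values were seen, and some genes that the rule picks are not reported here. Coordinates are from GENCODE M21 (GRCm38), and copies were sought with blastn 2.17.0 (identity at least 95% over at least 100 bases).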

Additional observations from a re-analysis of the deposited data

Results flagged for a closer look

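Within the 6 lymphomas, 13 values (8 members and 5 ratios) were examined for a library whose gap to its neighbour was a large share of the group's range (above Dixon's 95% critical value). This held for 3 values, where chance gives 0.65, and all 3 concern Tet1 in lymphoma 53. Tet1 stood at 11.4 CPM there, with a gap of 0.799 of the range. The log2 ratio of Tet1 to Tet2 was -2.12 (gap 0.853) and that of Tet1 to Tet3 was -3.01 (gap 0.932). These 3 values share the same Tet1 count of 125 and are not independent.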

How the results depend on the processing

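The 18 alternatives were 3 other scalings, DESeq2, limma voom, 2 other filters, an adjusted p under 0.01, averaging lymphomas 34, 70 and 72 into 1 library, and leaving out each library. The same 7 members were called in all 18, and Tet1 also passed without lymphoma 53, the only change of call among members. Over the alternatives the log2 fold change ran from 1.93 to 2.16 for Dnmt1, 3.44 to 3.80 for Uhrf1, 0.87 to 1.07 for Dnmt3a, 1.54 to 1.98 for Dnmt3b, 0.68 to 1.02 for Tet1, -1.56 to -1.34 for Tet2, -1.09 to -0.86 for Tet3 and 1.45 to 2.36 for Tdg. Leaving out 1 library gave 5871 to 8137 genes differing over the whole table, the highest without lymphoma 53. The pathway list had 23 to 34 genes differing. Of the 31 named genes (547 values over the alternatives), none changed sign. Germline genes differing numbered 3 without a filter, all 3 lower (Sycp2, Syce1 and Mov10l1), and 0 to 1 when 1 library was left out, the 1 without CD4 1. Imprinted genes differing, 8 in all, were 5 with 3 lymphomas averaged and 3 where all libraries had to hold 10 counts (2 higher and 1 lower), and those higher numbered 3 with limma voom, with 3 lymphomas averaged and at an adjusted p under 0.01. Ratios within libraries were the same with an offset of 2 counts, within the spread of the lymphomas. RLE scaling gave the same ratios too, but it could hardly move them, since both genes of a ratio share the scaling of their library. No paired analysis was possible because the groups share no replicate number. Depth limits Tdg most among the members, with as few as 10 counts in CD4 1.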

Other observations

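Lymphoma 53 departed from the other lymphomas in further genes of the lists, chosen here after their values were seen. Gnas, an imprinted gene for a G protein subunit, had 8 counts (0.731 CPM) in lymphoma 53, 21.4 to 43.7 CPM in the other lymphomas and 16.2 to 21.4 CPM in CD4. The imprinted noncoding RNA Kcnq1ot1 had 679 CPM in lymphoma 53, 1483 to 2072 CPM in the other lymphomas and 600 to 879 CPM in CD4. Idh2 had 38.5 CPM in lymphoma 53 and 92.4 to 158 CPM in the other lymphomas. Mbd3 went the other way, with 149.6 CPM in lymphoma 53 and 73.1 to 80.6 CPM in the others. These differences rest on 1 library and were not tested. Among the lymphomas, number 53 also had the fewest gene counts (11170704) and the lowest share of reads in genes (38.7%). Its share of reads ambiguous between genes was the highest (5.07%). The part of these library traits in the departures of lymphoma 53 was not tested.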
